A study of Mus musculus with 4 samples.

Results

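The 10 genes described here either encode beta-catenin or parts of the complex that degrades it, or belong to the feedback loop that WNT signalling sets on itself. They were chosen by name, as all probes of the array whose gene name is Axin1, Axin2, Nkd1, Nkd2, Apc, Apcdd1, Rnf43, Znrf3, Gsk3b or Ctnnb1. This gave 16 probes out of 39429, and 10 genes out of 29924 gene names. All 16 probes were well above background in both channels of every array. The data are 4 two-colour arrays of wildtype NMRI mouse ureters at E12.5, whose sex was not determined. The explants were cultured in IWP-2 (10 µM) or in DMSO (2:1000) as control, and the culture lasted 18 h. IWP-2 inhibits Porcupine, the acyltransferase that WNT ligands need to leave the cell. It was given to the whole explant, epithelium and mesenchyme together. Each array compares 1 pool of treated ureters with 1 pool of control ureters, with the IWP-2 RNA in red on arrays 1 and 3 and in green on arrays 2 and 4. No animal is represented singly. The SDs are over all 4 arrays and hold the dye effect. The limma p-values instead measure the spread between arrays of the same dye order, drawn towards the spread of all genes. The labels and the methods number 4 pools per group, whereas another passage of the study counts fewer. If arrays shared a pool, this spread would be partly technical and the p-values too small.

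In the absence of WNT ligand, beta-catenin is bound by the scaffolds AXIN and APC, phosphorylated by casein kinase 1 and GSK3, and handed to the proteasome. Ligand binding draws AXIN to the receptor, beta-catenin accumulates, and with TCF/LEF factors it activates target genes. In many tissues these targets include Axin2, Nkd1, Apcdd1, Rnf43 and Znrf3, whose products dampen the pathway, while Axin1, Apc, Gsk3b and Ctnnb1 are regarded as constitutively expressed parts of the machinery. In the early ureter, WNT ligands from the epithelium signal through beta-catenin to the surrounding mesenchyme.

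Axin2, Nkd1 and Apcdd1 fell about 3-fold with IWP-2, on 4 of 4 arrays each. Rnf43, Znrf3, Axin1, Apc, Gsk3b and Ctnnb1 showed no change past the test. Nkd2 depended on the probe: the ratio was -0.12 and did not pass the test at the brighter of its probes, and it fell at the dimmer one, by 0.74 on the log2 scale. Because whole explants were measured, fewer cells of a type and less RNA per cell cannot be told apart. Altogether 3 of the 10 genes were lower and 0 were higher past the test (limma, adjusted p under 0.05), while over all 22461 genes tested 15% were lower and 18.1% were higher. At unadjusted limma p under 0.05, 5 members were lower, Nkd2 and Znrf3 in addition, and 0 were higher. The share of all genes at this unadjusted threshold was not counted, and the shares above are for adjusted p. The unadjusted count is therefore not read as a result. With adjusted p under 0.05 and at least 2-fold as a further requirement 3 of 10 were lower, against 0.735% of all genes.

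The following are the last 30 bases of the 60-base probes on which these statements rest, written 5′ to 3′ as the files give them, with the polyadenylation signal AATAAA in capitals where it occurs. They are shown because both probes of Nkd2 gave different answers, whereas those of Axin2 and Nkd1 serve as a comparison.
Axin2, brighter probe: tgtagcctttattaaaattttatatttttc
Axin2, dimmer probe: caaatgcaaaagccacccgaaggctccaga
Nkd1, brighter probe: gacacatggaaacacagaagtaaactttta
Nkd1, dimmer probe: gagtcaaaggtaagtcagcaggctccatct
Nkd2, brighter probe: ataaaacaccaatgaacataagcttttttc
Nkd2, dimmer probe: cttggcatAATAAAgaattgtgcattctgt
On the mm9 build the brighter Axin2 probe lies at chr11:108812034-108812093 on the plus strand, at base 4196 of its transcript, and has a GC content of 20%. The dimmer one lies at chr11:108803927-108803986, at transcript base 1971, with 48.33% GC. Both Nkd1 probes are on the plus strand, at chr8:91116160-91116219 and chr8:91118468-91118527. Both Nkd2 probes are on the minus strand, the brighter at chr13:73956776-73956835 and the dimmer at chr13:73957581-73957640, and each has 36.67% GC. The distance between the Nkd2 probes is 805 bases in the transcript and also 805 bases in the genome, so that no intron separates them, and the dimmer probe is the one closer to the 5′ end. The Nkd1 probes are likewise 2308 bases apart on both scales. The signal AATAAA occurs in 12.6% of all 39429 gene probes, and in the last 30 bases of 10.6%. No annotation of this build was used here, so that exons and untranslated regions are not assigned.

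Axin2 encodes the inducible AXIN scaffold and is the most widely used reporter of beta-catenin activity. On the normalised log2 intensity scale, its brighter probe read 11.22, 11.25, 11.29 and 11.10 in the control channels of arrays 1 to 4. With IWP-2 it read 9.75, 9.57, 9.72 and 9.57. The lowest control pool thus lay well above the highest treated pool, and the groups did not overlap. The log2 ratio of IWP-2 over control was -1.56 ± 0.085 (SD, n = 4), a 2.95-fold fall, with a 95% interval of -1.67 to -1.45 and a limma adjusted p of 1.23e-05. It ranked 53rd from the lowest of the 22461 genes.

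Nkd1 encodes a Dishevelled-binding antagonist. Its brighter probe read 14.32, 14.31, 14.51 and 14.21 in the control channels and 12.73, 12.70, 12.83 and 12.73 with IWP-2. The treated pools differed among each other by less than the control pools did, and no treated pool came near a control pool. The log2 ratio was -1.59 ± 0.081 (SD, n = 4), or 3.02-fold, with a limma adjusted p of 1.04e-05. Apcdd1, whose product is a membrane glycoprotein that inhibits WNT signalling at the receptor, had only 1 probe. That probe read 11.40, 11.72, 11.58 and 11.53 in the control channels and 9.81, 9.80, 9.98 and 9.77 with IWP-2. Its log2 ratio of -1.72 ± 0.156 (SD, n = 4) was the lowest of the 10 genes, at 3.29-fold and a limma adjusted p of 8.27e-06. The intervals of Axin2, Nkd1 and Apcdd1 overlapped one another.

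**Figure D1:**
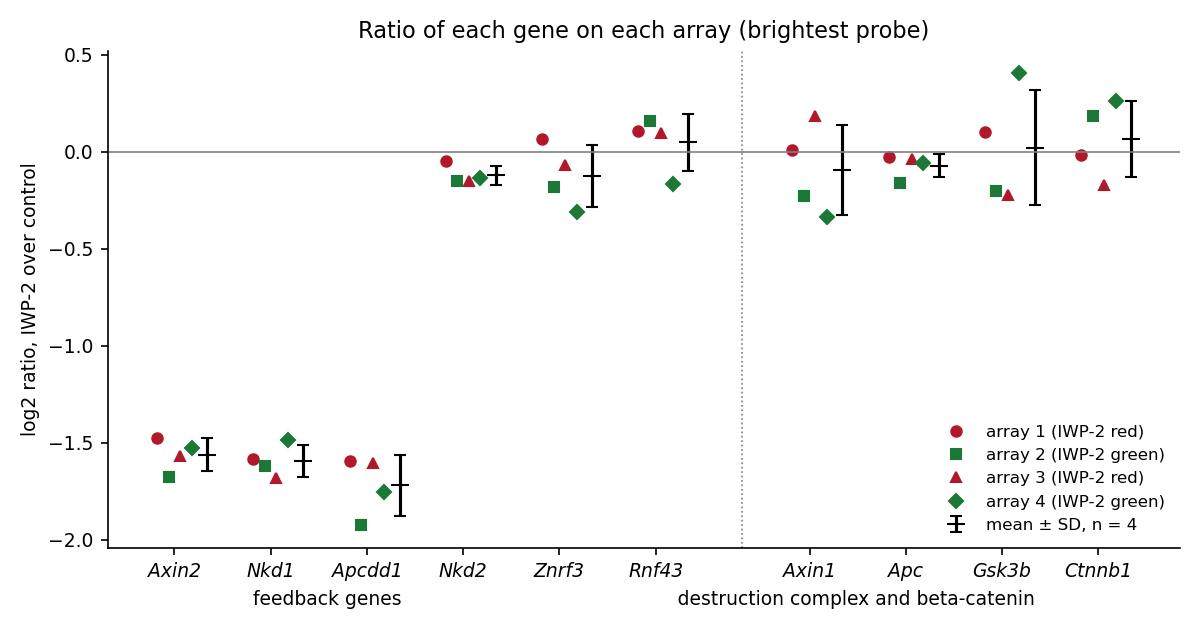
Log2 ratio of IWP-2 over control (y axis) of the 10 genes (x axis) on each of 4 arrays, brightest probe of each gene, with mean and SD (n = 4); red symbols mark arrays with IWP-2 in the red channel, green symbols those with IWP-2 in the green channel. Axin2, Nkd1 and Apcdd1 lie between -1.48 and -1.93 on every array, and the other 7 genes lie around 0.

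Rnf43 and Znrf3 encode transmembrane ubiquitin ligases that remove Frizzled receptors from the cell surface. Rnf43 read 12.42, 12.61, 12.64 and 12.58 in the control channels and 12.52, 12.77, 12.74 and 12.42 with IWP-2. It was higher on arrays 1 to 3 and lower on array 4, and the groups overlapped. Its log2 ratio was 0.05 ± 0.146 (SD, n = 4), with an interval of -0.09 to 0.19 and a limma adjusted p of 0.564. The lower bound of this interval lay far above the ratio of Axin2. Znrf3 was lower on 3 of 4 arrays, with ratios of 0.07, -0.18, -0.07 and -0.31 and a mean of -0.12 ± 0.160 (SD, n = 4; limma adjusted p = 0.0855). Its probe was dim, with raw intensities from 60 to 152 in the channels, and the offset used in the background correction draws the ratios of dim probes towards 0. From the processed signals of the scanner software the Znrf3 ratio was -0.28 ± 0.297 (SD, n = 4).

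Among the constitutive genes, Axin1 encodes the other AXIN scaffold. It read 9.90, 10.17, 9.56 and 10.58 in the control channels and 9.91, 9.95, 9.74 and 10.24 with IWP-2, so that the treated pools lay within the range of the control pools. Its ratio was -0.09 ± 0.232 (SD, n = 4; limma adjusted p = 0.184), with an interval of -0.21 to 0.02. Apc, a tumour suppressor and scaffold of the complex, was measured by a pair of probes with ratios of -0.07 ± 0.061 and -0.13 ± 0.252 (SD, n = 4). The brighter was below 0 on 4 of 4 arrays by small amounts and had a limma adjusted p of 0.227. Gsk3b, the kinase that marks beta-catenin for degradation, had ratios of 0.10, -0.20, -0.22 and 0.40 at its brightest probe, which averaged 0.02 ± 0.296 (SD, n = 4; limma adjusted p = 0.898). Its other probes averaged -0.04 ± 0.209 and -0.11 ± 0.277, and only the last of these spans an exon junction by its coordinates. The interval for Gsk3b, -0.23 to 0.27, was the widest of the 10 genes. Ctnnb1 encodes beta-catenin itself, whose level is set mainly at the protein. It read 15.71, 15.60, 15.81 and 15.69 in the control channels and 15.70, 15.78, 15.64 and 15.95 with IWP-2, a ratio of 0.06 ± 0.194 (SD, n = 4; limma adjusted p = 0.312). Arrays carry no information on beta-catenin protein.

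For some of these genes the small ratios followed the dye order. Axin1 averaged 0.10 on arrays 1 and 3, where IWP-2 was red, and -0.28 on arrays 2 and 4, where it was green. Ctnnb1 went the other way, with -0.09 on arrays 1 and 3 and 0.22 on arrays 2 and 4, and Znrf3 had 0.00 and -0.24. Fitted on arrays 2 and 4 alone, these 3 genes passed the test (limma adjusted p of 0.0243, 0.0441 and 0.0391), and on arrays 1 and 3 alone they did not (0.391, 0.393 and 0.995). The dye term of the fit takes up this split. The falls of Axin2, Nkd1 and Apcdd1 were present in either order, with -1.52, -1.63 and -1.60 on arrays 1 and 3 and -1.60, -1.55 and -1.84 on arrays 2 and 4.

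**Figure D2:**
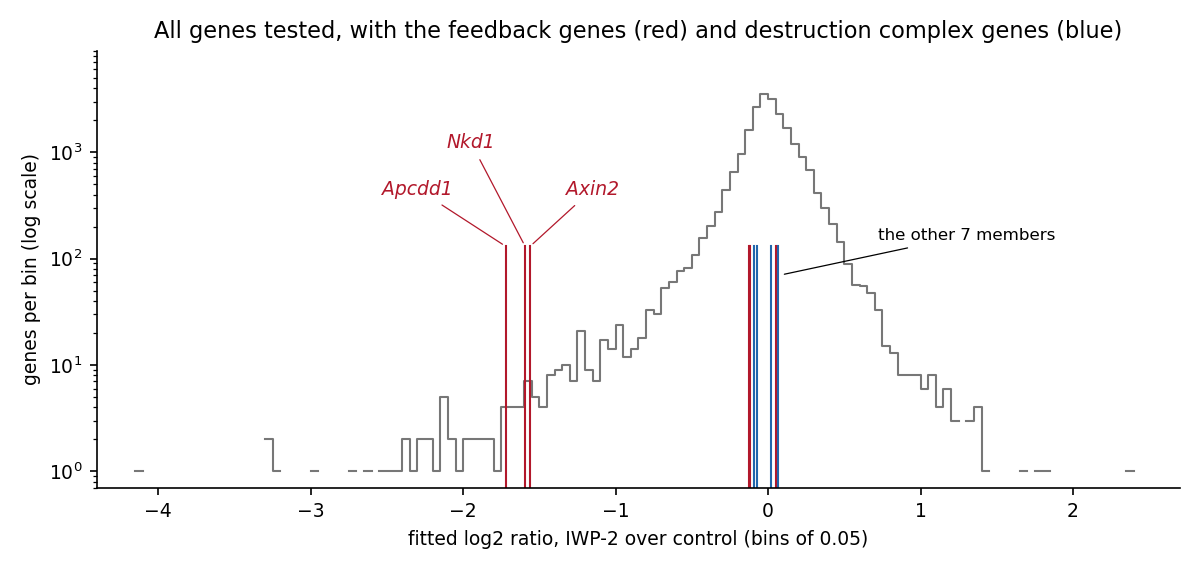
Number of genes (y axis, log scale) per bin of 0.05 of the fitted log2 ratio of IWP-2 over control (x axis) for all 22461 genes tested. Vertical lines mark the 6 feedback genes (red) and the 4 genes of the destruction complex and beta-catenin (blue). Axin2, Nkd1 and Apcdd1 stand in the sparse lower tail and the other 7 in the bulk of the distribution.

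Over the 6 feedback genes the median log2 ratio was -0.84, with 3 lower and 0 higher. Over the 4 genes of the destruction complex and beta-catenin it was -0.03, with 0 lower and 0 higher. The median of all genes was 0.00. The feedback group was therefore not uniform: 3 of its genes fell by more than 1.5 on the log2 scale, while the other 3 had ratios between -0.12 and 0.05 at their brightest probes. The cut-offs that the study applied to the individual arrays of a stage, an intensity above 100 and a change of more than 2-fold, were required here on all 4 arrays, although the study's text speaks of fewer arrays per stage. By this filter Axin2, Nkd1 and Apcdd1 passed as lower, as did 0.321% of the 29924 gene names, and 0 members passed as higher. This filter involves no test.

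Paralogues were then set against each other on the same array. Only the pair of Axin2 and Axin1 sets a feedback gene against a constitutive one. In the other pairs both genes belong to the feedback group. The log2 ratio of Axin2 minus that of Axin1 was -1.48, -1.45, -1.75 and -1.19 on arrays 1 to 4, a mean of -1.47 ± 0.228 (SD, n = 4). That of Nkd1 minus Nkd2 was -1.54, -1.47, -1.53 and -1.35, a mean of -1.47 ± 0.087, when the brightest probe stood for each gene. Rnf43 and Znrf3 differed by 0.17 ± 0.123, with Rnf43 the higher on 4 of 4 arrays. In an exact two-sided sign-flip test over the 4 arrays each of the 3 differences had p = 0.125, also after Benjamini-Hochberg adjustment over the 3 pairs. This is the smallest p that 4 arrays can give, so that the test cannot reach 0.05. The first and second differences exceeded the SD between arrays several-fold, but their size depended on the choice of probe. With the mean over probes they were -0.98 and -1.03, and with the dimmest probe of each gene -0.49 and -0.58. The third was little larger than its SD and was 0.36 ± 0.195 with the processed signals.

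**Figure D3:**
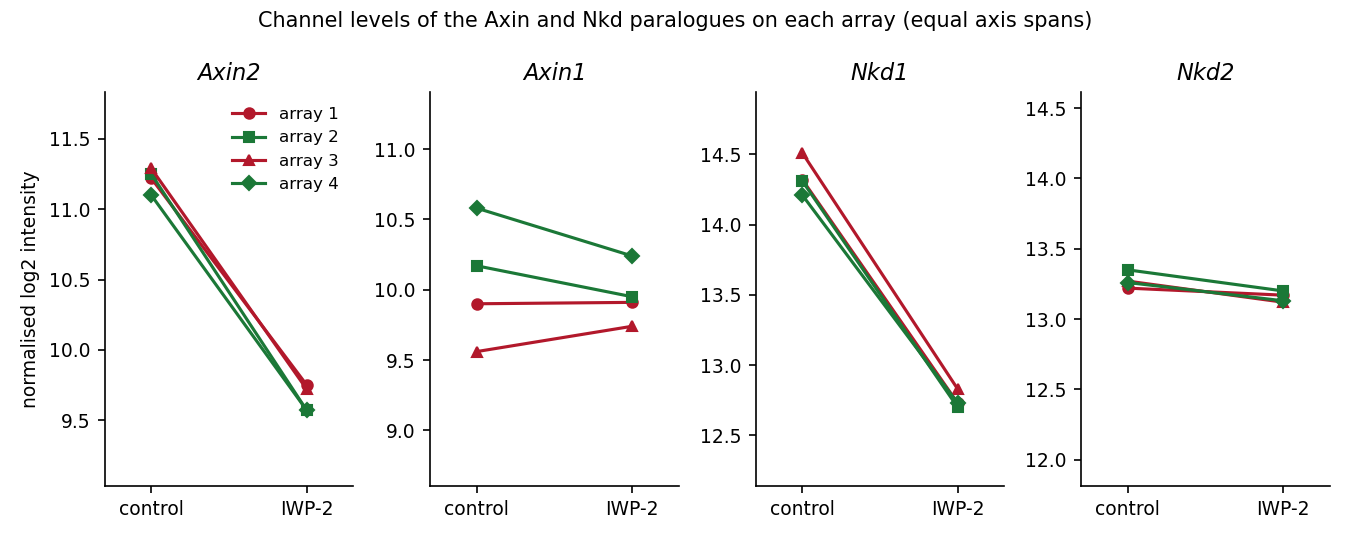
Normalised log2 intensity (y axis) of Axin2, Axin1, Nkd1 and Nkd2 in the control and IWP-2 channels (x axis) of the 4 arrays, brightest probe of each gene, with a line for each array and panels of equal span. Axin2 and Nkd1 fall on all 4 arrays, Axin1 is lower on 2 arrays and higher on the other two, and Nkd2 is slightly lower on all 4.

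For Nkd2, the paralogue of Nkd1, both probes were examined in turn. The brighter probe, which is the more 3′ of the pair, read 13.22, 13.35, 13.27 and 13.26 in the control channels and 13.17, 13.20, 13.12 and 13.13 with IWP-2. The treated pools lay just below the control pools without overlap. Its ratio was -0.12 ± 0.050 (SD, n = 4), negative on 4 of 4 arrays, with an interval of -0.22 to -0.02 and a limma adjusted p of 0.0617. The dimmer probe, 805 bases upstream, read 8.97, 8.97, 8.95 and 9.09 in the control channels and 8.34, 8.17, 8.13 and 8.38 with IWP-2. There the ratio was -0.74 ± 0.090 (SD, n = 4), and it passed the test in the fit over all 29943 probes (limma adjusted p = 0.000139), in which 15.9% of the probes were lower. The ratio of the dimmer probe minus that of the brighter one was -0.58, -0.64, -0.68 and -0.57 on arrays 1 to 4, a mean of -0.62 ± 0.050 (exact sign-flip p = 0.125, the smallest possible). This probe carries the AATAAA signal shown above, and the brighter probe lies beyond it. Whether the probes read different transcripts was not tested.

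The dimmer probes of Axin2 and Nkd1 gave smaller falls than the brighter ones. For Axin2 the ratio was -0.59 ± 0.078 against -1.56, and for Nkd1 it was -1.32 ± 0.144 against -1.59 (SD, n = 4), each on 4 of 4 arrays and past the test over all probes (limma adjusted p of 0.000288 and 2.4e-05). These gaps moved with the values used. The dimmer Axin2 probe had raw intensities of only 48 to 173 over a median local background of 28 to 77. With the processed signals, which carry no offset and are also dye-normalised by the scanner software, it fell by 1.43 on the log2 scale against 1.62 at the brighter probe, and the gap shrank from 0.98 ± 0.069 to 0.20 ± 0.031. In the authors' series table of fold changes the Axin2 gap did not shrink: the dimmer probe was at -0.69 ± 0.370 and the brighter at -1.63 ± 0.090. For Nkd1 the gap shrank and changed sign, from 0.27 ± 0.064 to -0.09 ± 0.082 with the processed signals. In the series table the dimmer Nkd1 probe was also the lower, at -1.70 ± 0.18 against -1.61 ± 0.092. The gap between the Nkd2 probes did not shrink in this way: it was -0.79 ± 0.083 with the processed signals, at ratios of -0.88 ± 0.122 and -0.10 ± 0.064. In the series table they were -0.88 ± 0.101 and -0.10 ± 0.069, so that both Nkd2 probes differed under all 3 sets of values.

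**Figure D4:**
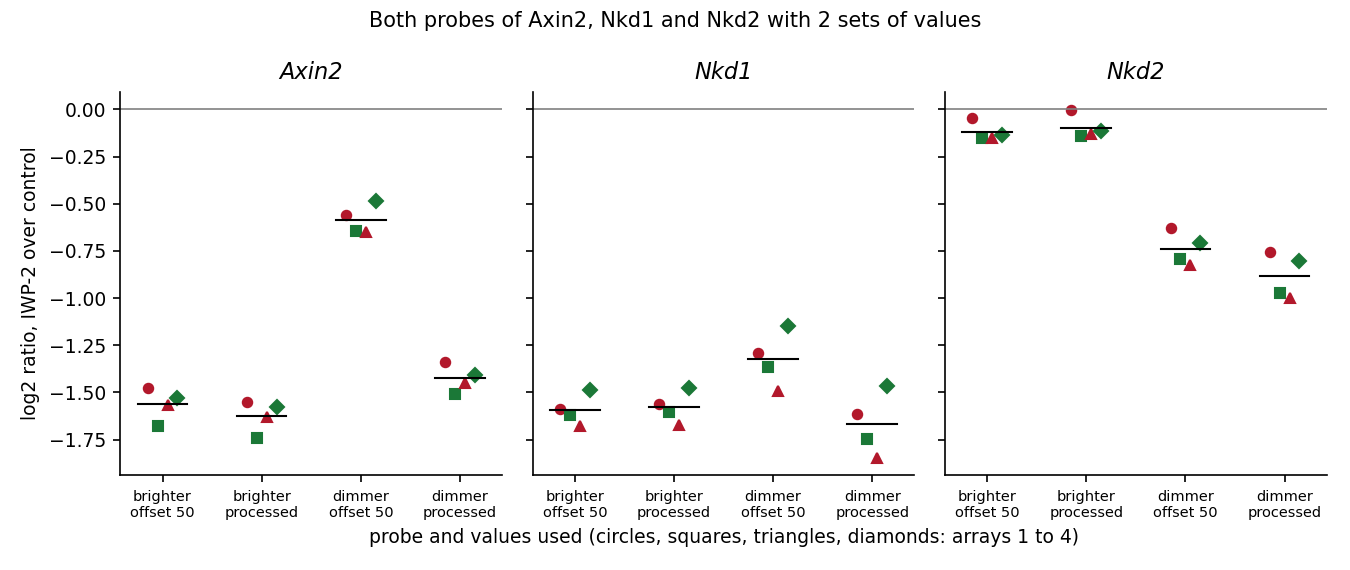
Log2 ratio of IWP-2 over control (y axis) on 4 arrays for the brighter and the dimmer probe of Axin2, Nkd1 and Nkd2 (x axis), each with normexp and an offset of 50 and with the processed signals of the scanner software; bars mark the mean of 4 arrays. With the processed signals the probes of Axin2 and of Nkd1 come close together, whereas those of Nkd2 remain apart, at -0.10 and -0.88.

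Genes whose ratios resembled those of Axin2 were ranked by the root mean square difference of the log2 ratios over the 4 arrays among 16145 other genes with a name. The nearest were Car13, a carbonic anhydrase, with 0.06; Hr, the corepressor hairless, with 0.09; the secreted WNT modulator Dkk2 with 0.11; the pentraxin Ptx3 with 0.12; and Lef1, a transcription factor partner of beta-catenin, with 0.13. Nkd1, with 0.09, would stand among them, and Apcdd1, with 0.18, further out. The ratios of Car13 were -1.45, -1.70, -1.51 and -1.63 on arrays 1 to 4. Those of Lef1 were -1.35, -1.66, -1.34 and -1.53. All 5 were read on the same arrays and RNA pools as Axin2, and the ranking is a description.

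Promoter sequence from the RefSeq table of the GRCm38.p6 assembly was searched for 6 of the 10 genes. It was read as 8 windows of 250 bases before to 50 bases after a start. Axin1, Znrf3, Apc and Apcdd1 were not searched. The TCF/LEF core CTTTGA, searched on both strands, occurred in 1 of these 8 windows, that of Gsk3b, and in 16% of all 32851 windows. In the windows of Axin2, Nkd1, Nkd2, Rnf43 and Ctnnb1 these letters did not occur. Sites outside these windows were not searched.

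Of 45 other genes of the pathway, in 5 lists, all were tested. There were 5 that were lower and 8 that were higher past the test, with a median of -0.03 over all 45. These counts are near the array-wide shares of 15% lower and 18.1% higher and are no result about the pathway. The 16 further members and regulators of the destruction complex included 0 lower and 4 higher genes, and their median was 0.06. Of these, Csnk1d and Csnk1g2, which encode casein kinase 1 isoforms, were higher by 0.27 ± 0.043 and 0.24 ± 0.101 (SD, n = 4; limma adjusted p of 0.00308 and 0.0128). Tnks2, a tankyrase that marks AXIN for degradation, was higher by 0.22 ± 0.195 (limma adjusted p = 0.00708), with 0.03 and 0.06 on arrays 1 and 3 against 0.39 and 0.38 on arrays 2 and 4.

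Among 9 genes for Dishevelled and its partners, 2 were lower and 2 were higher. Over all genes 15% were lower and 18.1% higher, and the counts of the lists that follow stand beside the same shares. Dact1, a Dishevelled-binding modulator, was at -0.49 ± 0.196 (SD, n = 4; limma adjusted p = 0.00446), which was the largest change of the 45 genes. Its ratios on arrays 1 to 4 were -0.34, -0.59, -0.71 and -0.30. Dixdc1, which carries a DIX domain like AXIN and Dishevelled, was at -0.20 ± 0.126 (adjusted p = 0.0380). Dact2, a relative of Dact1, was at 0.24 ± 0.146 and Dvl1, a Dishevelled, at 0.15 ± 0.098 (limma adjusted p of 0.00512 and 0.0370). Dact2 followed the dye order, with 0.377 and 0.348 on arrays 1 and 3 against 0.106 and 0.116 on arrays 2 and 4. The calls of Dvl1, Dixdc1 and, in the next list, Btrc held in only 7, 9 and 10 of 15 alternatives. In the destruction complex list, the call of Ppp2cb (0.15 ± 0.169, limma adjusted p = 0.0387) held in 7 of 15. Its ratios were 0.017 and -0.005 on arrays 1 and 3 against 0.221 and 0.349 on arrays 2 and 4. Of 7 genes for the ubiquitin ligase of beta-catenin 1 was lower, namely Btrc, its substrate receptor, at -0.18 ± 0.064 (limma adjusted p = 0.0206). Of 6 partners of beta-catenin in the nucleus 1 was lower, the inhibitor Cby1 at -0.20 ± 0.048 (limma adjusted p = 0.0101).

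Of 7 catenins and cadherins at the membrane 1 was lower and 2 were higher, against 15% and 18.1% of all genes. Ctnna2, an alpha-catenin, was at -0.40 ± 0.139 (SD, n = 4; limma adjusted p = 0.00386). Cdh1, the cadherin of epithelia, was higher by 0.34 ± 0.074 and Cdh2 by 0.23 ± 0.114 (limma adjusted p of 0.00152 and 0.0057), each on 4 of 4 arrays. Both were larger on arrays 2 and 4, with Cdh2 at 0.321 and 0.333 there against 0.135 and 0.125 on arrays 1 and 3. Cdh1 is also a marker of epithelium. All 7 epithelial markers of the list examined were higher, against 18.1% of all genes, with a median of 0.30, and their summed linear level was 179900 to 195200 in the control pools and 205300 to 255400 in the treated pools. Of the epithelial markers, Krt19 held its call in only 10 of 15 alternatives, with ratios of 0.017 to 0.599 on the arrays. Markers of ureteric mesenchyme gave no common direction: 1 of 7 was lower and 2 were higher, against the same shares of all genes. Tbx18 was lower, at -0.74 ± 0.262 (SD, n = 4; limma adjusted p = 0.00171). Pdgfrb was at 0.80 ± 0.073 and Osr1 at 0.28 ± 0.137 (limma adjusted p of 9.34e-05 and 0.0148). The summed levels were 365100 to 395100 in control and 379900 to 421300 in treated pools. Bright markers weigh most in this sum: Col3a1, Col1a1 and Vim averaged 16.85, 16.57 and 16.2 on the log2 scale in control, and Tbx18 14.56. Of the markers of blood, endothelium, nephron progenitors, and neural crest and glia 4 of 6, 4 of 6, 4 of 5 and 3 of 6 were higher, against 18.1% of all genes, 1 nephron progenitor marker was lower, and no defining marker of these lists was below background. Of those called higher, Kdr, Cited1 and Eya1 held their call in only 4, 6 and 9 of 15 alternatives. Hbb-y was at 0.612 and 0.73 on arrays 1 and 3 but at -0.1 and -0.139 on arrays 2 and 4. The part of all these markers in the results was not tested.

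**Figure D5:**
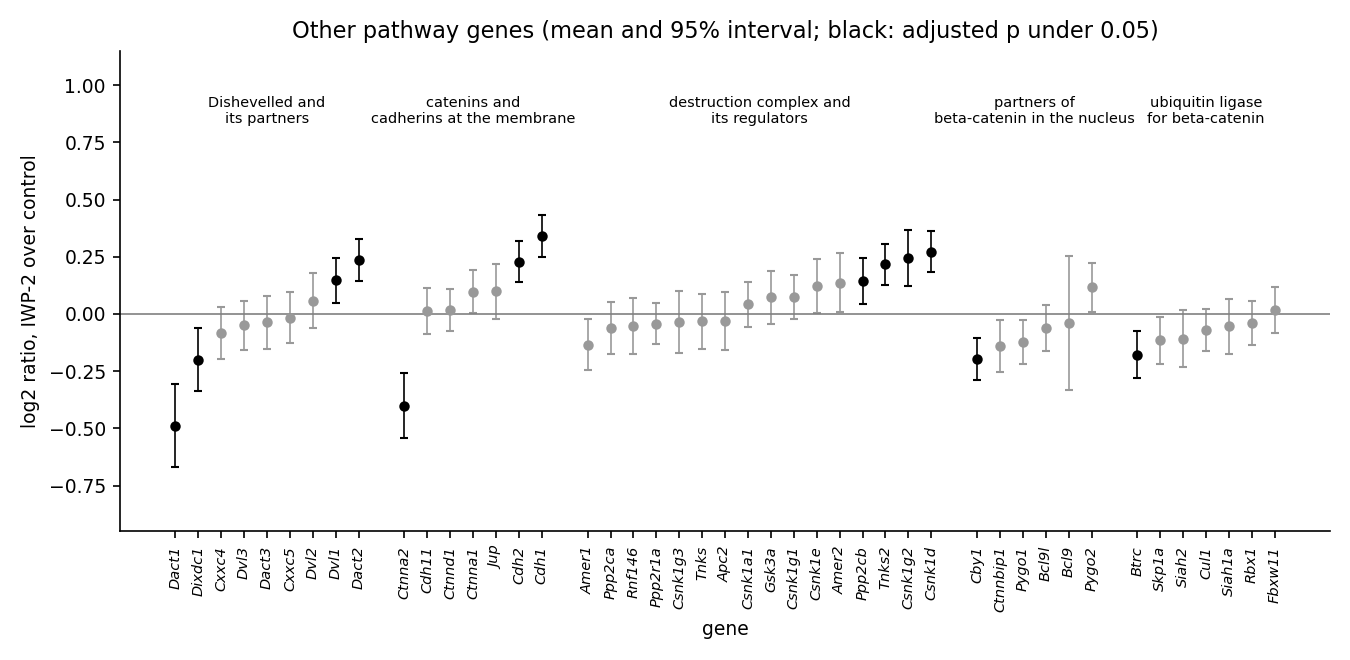
Fitted log2 ratio of IWP-2 over control with its 95% interval (y axis) for 45 other genes of the pathway (x axis), in 5 lists; black symbols passed the test and grey ones did not. All lie between -0.49 and 0.34, whereas Axin2, Nkd1 and Apcdd1 lie below -1.5.

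Across the arrays as a whole, the median raw intensity of gene spots was 368 to 711 in control and 385 to 694 in IWP-2 channels, and Pearson r between the log2 ratios of pairs of arrays was 0.625 to 0.831, across genes that are not independent replicates.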

How the data were processed

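The authors scanned the arrays with Agilent Feature Extraction 10.7.3.1. The deposited scanner files give, per spot, mean and local background intensity, which are raw, and a processed intensity that per the file headers is background-subtracted and dye-normalised. The deposited log10 ratio, red over green, was used only to check direction. The deposited series table of signed fold changes, of unstated normalisation, served as an alternative. Raw intensities were corrected with limma 3.58.1 in R 4.3.3 (normexp, offset 50) and normalised by loess (span 0.3) within each array. Control and outlier spots (3.01% to 3.38%) were left out, and the 4 spots of a probe were averaged. A gene was tested if well above background in the control or the IWP-2 channel of all 4 arrays, and the brightest probe stood for it. The log2 ratios of 22461 genes were fitted with lmFit and eBayes with a dye term, and p was adjusted by Benjamini-Hochberg (threshold 0.05). Means ± SD are over the 4 arrays and still hold the dye effect. The fit was tested on simulated data. All members, list genes past the test (at most 12 by size, with Ppp2cb in addition) and the 5 genes nearest to Axin2 are named. The members and lists were chosen with earlier results of these data known. Gene names and mm9 positions are those of the array design. The control and the treated pool of an array form a pair by hybridisation.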

Additional observations from a re-analysis of the deposited data

How the results depend on the processing

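Axin2, Nkd1 and Apcdd1 stayed lower and past the test under all 15 alternatives that refit single genes and on either dye order alone. Rnf43, Apc and Gsk3b stayed short of it under the same settings. Nkd2 passed it with the mean over probes (-0.43) and, in a setting chosen after seeing the data, with the dimmest probe of each gene (-0.74). With arrays 2 and 4 alone 5 members were lower, Axin1 and Znrf3 in addition, and 1, Ctnnb1, was higher. Small ratios changed sign: Gsk3b was -0.019 with median centring, -0.045 with the mean over probes, -0.114 with the dimmest probe, -0.06 with arrays 1 and 3 alone, and -0.131 to 0.172 when 1 array was left out (negative without array 1 or 4). Ctnnb1 was -0.015 with median centring and -0.092 with arrays 1 and 3 alone, Axin1 was 0.095 with arrays 1 and 3 alone, and Rnf43 was -0.032 to 0.13 when 1 array was left out (negative without array 2) and -0.004 with arrays 2 and 4 alone. The Axin2 minus Axin1 difference was -0.98 with the mean over probes and -0.49 with the dimmest probe, that of Nkd1 and Nkd2 -1.03 and -0.58, and that of Rnf43 and Znrf3 0.36 with the processed signals. Leaving out 1 array each gave -1.56 to -1.38, -1.51 to -1.45 and 0.12 to 0.21 for these 3.

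Of the 45 pathway genes, 5 were lower and 8 higher. The lower count was 3 with the processed signals, 2 with the series table, 8 with the dimmest probe, 3 on either dye order alone, and 3 to 6 without 1 array (3 without array 2). The higher count was 4 with median centring, 5 without the dye term, 5 with the dimmest probe, 4 with arrays 1 and 3 alone, and 6 to 8 without 1 array. Over all genes the series table gave 2050 lower and 1833 higher, arrays 1 and 3 alone gave 2498 higher, and leaving out 1 array gave 2177 (without array 3) to 2811 lower and 2879 to 3348 higher. Treating the 8 channels as separate samples, without the replicate block that the pairing on an array provides, gave 2067 lower and 2039 higher genes, and 2 lower and 5 higher pathway genes. No member changed its call in this fit. Slide and scan could not be fitted as a block, because all 4 arrays share both. The cause of these shifts was not tested. The offset limits the probes near background, above all those of Znrf3 and the dimmer probe of Axin2.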
